A study of Mus musculus with 8 samples.

Results

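Metallothioneins and the genes that handle zinc were described in the livers of mice fed persimmon peel (PP) extract. The members are 6 genes: Mt1 and Mt2, which encode metallothioneins, Mtf1, Slc30a1, Slc30a10 and Slc39a14. Every probe set to which the platform annotation gives 1 of these symbols alone was taken, which made 16 probe sets of the 45037 that were tested, for 6 of 18193 genes with such an annotation. The genes were not selected by a threshold on the values.

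Livers came from 8 male KK-Ay mice, an obese model of type 2 diabetes, at 14 weeks of age. The PD mice (n = 4) had eaten AIN93G diet with 1 g of PP extract per kg for 8 weeks, and the CD mice (n = 4) AIN93G alone. All were of that strain, so no lean or healthy mouse is among them, and the methods state that the mice were picked because their plasma total ketone bodies were close to an average. Each liver was hybridized to 1 Affymetrix GeneChip array, which makes the spread between arrays a spread between mice.

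Metallothioneins are small cysteine-rich proteins that bind zinc and copper and buffer them in the cytosol, and liver is a major site of their synthesis. Their genes are induced by zinc through the zinc-sensing transcription factor MTF-1, which binds metal response elements in their promoters, and are also known to respond to glucocorticoids and to interleukin 6. Slc30a1 encodes ZnT1, a zinc exporter of the plasma membrane and itself a target of MTF-1. Slc30a10 encodes a transporter that exports manganese, and Slc39a14 encodes ZIP14, which carries zinc, manganese and iron into hepatocytes.

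In the mouse genome Mt2 and Mt1 lie side by side on chromosome 8, with Mt4 and Mt3 before them and no other protein-coding gene in between. As MTF-1 is the known zinc-dependent regulator of metallothionein genes, the promoters of Mt1 and Mt2 are printed. That of Slc30a10, the member with the largest decrease in PD mice, is added. All are from the RefSeq sequences of GRCm38.p6. Each runs 5′ to 3′ on the plus strand over 300 bases, of which the first 250 precede the start of the gene, at chr8:94178839-94179138 for Mt1, chr8:94172368-94172667 for Mt2 and chr1:185454598-185454897 for Slc30a10. Capitals mark matches to the core of the metal response element, TGCACNC or TGCGCNC, on either strand.
Mt1: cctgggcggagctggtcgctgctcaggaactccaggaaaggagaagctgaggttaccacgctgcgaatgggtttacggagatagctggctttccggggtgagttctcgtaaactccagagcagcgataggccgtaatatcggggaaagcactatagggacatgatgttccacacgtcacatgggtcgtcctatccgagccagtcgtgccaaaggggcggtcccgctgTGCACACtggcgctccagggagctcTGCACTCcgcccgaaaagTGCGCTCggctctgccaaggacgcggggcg
Mt2: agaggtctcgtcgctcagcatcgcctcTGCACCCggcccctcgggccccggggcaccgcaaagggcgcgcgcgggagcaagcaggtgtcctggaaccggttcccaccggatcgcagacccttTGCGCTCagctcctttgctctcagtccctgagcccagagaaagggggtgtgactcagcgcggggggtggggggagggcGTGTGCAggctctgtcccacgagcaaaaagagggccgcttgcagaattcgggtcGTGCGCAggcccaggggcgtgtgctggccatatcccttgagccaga
Slc30a10: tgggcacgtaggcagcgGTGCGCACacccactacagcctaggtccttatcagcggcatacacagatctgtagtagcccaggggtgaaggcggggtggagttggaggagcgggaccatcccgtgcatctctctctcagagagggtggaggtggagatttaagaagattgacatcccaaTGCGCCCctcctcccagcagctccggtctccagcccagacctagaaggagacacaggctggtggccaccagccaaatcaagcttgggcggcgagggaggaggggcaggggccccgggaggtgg

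Within its window the Mt1 promoter held 3 such matches, the first beginning 23 bases before the annotated start and the others 3 and 21 bases after it. Positions are counted from the annotated start, and whether transcription in these livers begins there was not tested. Bases beyond the windows were not searched for any motif, so a motif absent from a window may lie outside it. The Mt2 promoter held 4, of which 2 lie on the minus strand, and Slc30a1 (chr1:191906531-191906830) held 2. The 3 matches of Slc30a10 include a pair that overlap on opposite strands, so that they cover 2 stretches. The promoter of Mtf1 itself (chr4:124802299-124802598) held 0. Of 32851 promoters of this length, 25.7% held at least 1 match, 7.11% at least 2, 1.97% at least 3 and 0.518% at least 4. The motif bound by STAT factors, TTCNNNGAA, was not found in the promoters of these 5 genes, and 8.30% of all promoters held it. The core of the antioxidant response element, TGACNNNGC, was found once each in Mt2 and Slc30a1, and in 12.4% of all promoters. A match of letters was taken as a description of the window and not as a bound site.

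The arrays were alike in overall level, with medians between 7.09 and 7.16 on the log2 scale and correlations between 0.991 and 0.996. As a reading of RNA integrity, 3′ control probe sets exceeded 5′ ones on the log2 scale by 1.14 to 1.18 in PD and 1.16 to 1.19 in CD mice for Actb, and 0.11 to 0.18 in PD and 0.12 to 0.17 in CD mice for Gapdh. Markers of hepatocytes were bright in all mice, the log2 of the summed level of 9 measured markers being 17.02 to 17.07 in PD and 16.99 to 17.09 in CD mice. The summed level of 8 markers of Kupffer cells and macrophages was 11.99 to 12.10 in PD and 11.68 to 12.30 in CD mice, and that of 3 markers of neutrophils 8.79 to 8.94 in PD and 8.82 to 9.16 in CD mice. The Kupffer cell sum was low in CD replicates 1 and 2 (11.74 and 11.68) and high in CD replicates 3 and 4 (12.25 and 12.30), and the part of these cells in the results was not tested. In whole liver, fewer cells of a type and less RNA per cell cannot be told apart.

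Mt1 and Mt2 were among the most variable transcripts of these livers, with the wider range among CD mice. On the probe set 1422557_s_at, whose suffix marks probes that can detect more than 1 transcript, Mt1 was 11.99, 12.00, 12.21 and 11.28 in PD mice and 12.05, 10.40, 10.88 and 12.84 in CD mice (log2 expression index, replicates 1 to 4). CD mice thus held both the highest value and the lowest 2 values, and PD replicate 4 lay below the other PD mice. The highest mouse exceeded the lowest 1.90-fold among PD mice and 5.41-fold among CD mice. Pooled within the diets, the SD of Mt1 was 0.83, which ranked 27 of 45037 probe sets.

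Mt2 (1428942_at) had values of 11.64, 11.92, 11.76 and 10.61 in PD mice and 11.79, 9.59, 10.56 and 12.68 in CD mice. Again replicates 1 and 4 were the high CD mice and replicates 2 and 3 the low ones, a division that cuts across that of the Kupffer cell markers. The highest mouse exceeded the lowest 2.49-fold among PD mice and 8.51-fold among CD mice. The SD of Mt2 within the diets was 1.05, rank 16 of all probe sets, while the median of all probe sets was 0.08 and that of the 16 probe sets of the members 0.14.

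**Figure D1:**
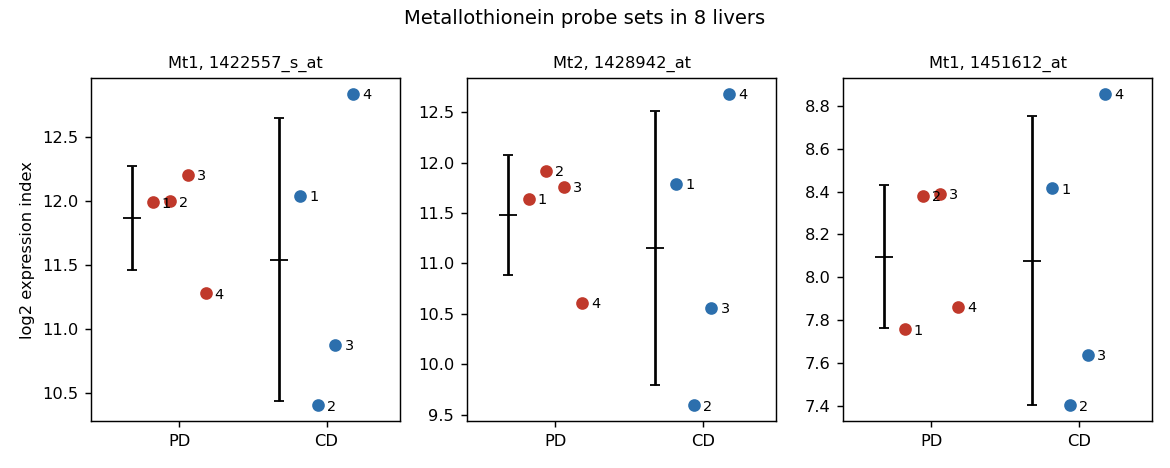
Log2 expression index (vertical axis) of the probe sets of Mt1 and Mt2 in 4 PD mice (red, left) and 4 CD mice (blue, right). Points are mice with their replicate number, and bars are the mean ± SD. In all 3 panels the CD mice enclose the PD mice, with CD replicate 4 highest and CD replicate 2 lowest.

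By the rank product, the test of the study, both genes were called higher in PD mice. This test ranks the PD/CD ratios of all probe sets inside every one of the 16 possible PD and CD array pairs, with a call at a false discovery rate, or FDR, under 0.1 (1000 permutations). Mt1 averaged 11.87 ± 0.41 in PD and 11.54 ± 1.11 in CD mice (SD, n = 4 each), a log2 difference (PD minus CD) of 0.33 with a standard error of 0.44, or 1.26-fold (FDR = 0.0183). Mt2 averaged 11.48 ± 0.59 in PD and 11.16 ± 1.36 in CD mice (SD, n = 4 each), a log2 difference of 0.33 with a standard error of 0.56, or 1.25-fold (FDR = 0.0231). The groups of both overlap. The PD mouse was the higher one in 9 of 16 pairs for Mt1 and likewise in 9 of 16 pairs for Mt2. These differences were smaller than the SD between mice on the same diet, 0.83 for Mt1 and 1.05 for Mt2. Two-sided exact permutation tests of the difference in means gave p = 0.6 for Mt1 and p = 0.657 for Mt2. The smallest p that 4 mice against 4 allow is 0.0286.

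The rank product called 96 probe sets higher in PD mice, 0.213% of all tested, and 118 lower, 0.262%. The 2 probe sets of Mt1 and Mt2 were the members called higher, of 16, and 0 were called lower. Limma, which sets each difference against the spread between mice, called 0 of 45037 probe sets (0%) at an adjusted p under 0.1, members included, and 1642 (3.65%) had an unadjusted p under 0.05, with 0 of the 16 members among them. By limma the unadjusted p was 0.475 for Mt1 and 0.571 for Mt2. Of the 96 probe sets called higher, 45 had an unadjusted p under 0.05 by limma, and 6 had a larger p than Mt1 and 2 a larger p than Mt2. The groups did not overlap for 476 probe sets with PD higher (1.06%) and 461 with PD lower (1.02%), and for 0 of the 16 probe sets of the members.

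The second probe set of Mt1, 1451612_at, followed the first over the mice but not in its call. It was 7.76, 8.38, 8.39 and 7.86 in PD mice and 8.42, 7.40, 7.64 and 8.86 in CD mice. The order of the CD mice was that of the first probe set, whereas PD replicate 1 lay lower here among the PD mice. The means were 8.10 ± 0.34 in PD and 8.08 ± 0.68 in CD mice (SD, n = 4 each), a log2 difference of 0.02 with a standard error of 0.29, and it was not called (FDR = 0.475). Its SD within the diets ranked 122 of all probe sets.

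The calls of Mt1 and Mt2 depended on which mice were included. Without CD replicate 2, the mouse with the lowest values, the log2 difference was −0.05 for Mt1 and −0.20 for Mt2, and neither was called. Without CD replicate 4, the mouse with the highest values, it was 0.76 for Mt1 and 0.83 for Mt2, and both were called. Leaving out PD replicate 1 (0.29), PD replicate 2 (0.29), PD replicate 3 (0.22) or CD replicate 3 (0.11) also ended the call of Mt1. Leaving out PD replicate 1 (0.27), PD replicate 2 (0.18), PD replicate 3 (0.23) or CD replicate 3 (0.13) likewise ended that of Mt2. The FDR of Mt1 was just above the threshold without PD replicate 1 (0.104) or PD replicate 2 (0.101). Over all probe sets the calls higher numbered 91, 39 and 40 without PD replicates 1, 2 and 3. They numbered 93 without CD replicate 2 and 190 without CD replicate 3, against 96 with all mice. Each gene was called in 3 of the 8 runs that left out 1 mouse. With both genes still called, the difference was 0.53 for Mt1 and 0.62 for Mt2 without PD replicate 4, and 0.50 for Mt1 and 0.54 for Mt2 without CD replicate 1.

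**Figure D2:**
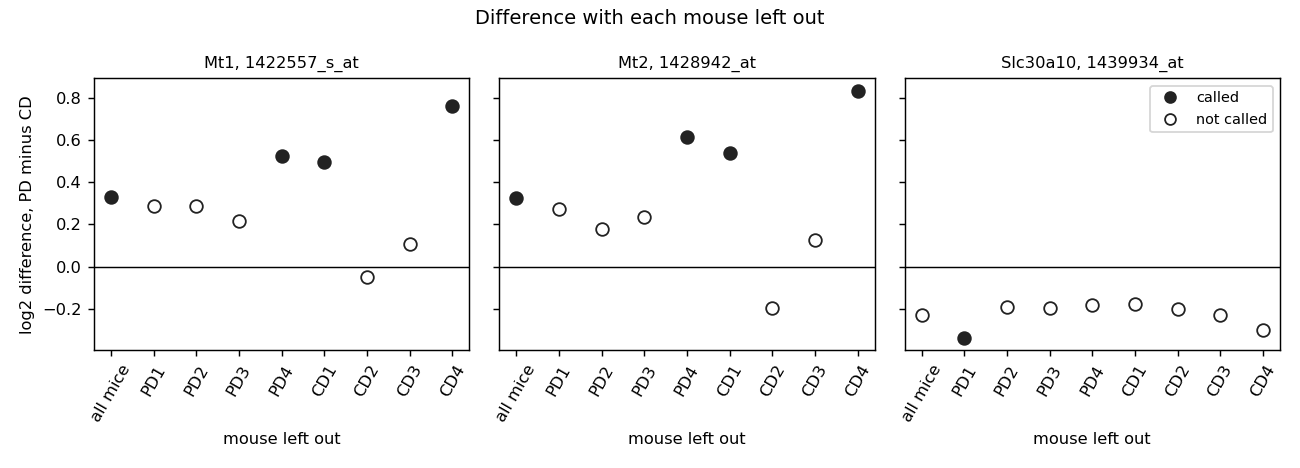
Log2 difference, PD minus CD (vertical axis), with all mice and with each mouse left out (horizontal axis) for Mt1, Mt2 and Slc30a10. Filled points were called by the rank product and open points were not. Mt1 and Mt2 pass below 0 without CD replicate 2, whereas Slc30a10 stays below 0 in every run and is called without PD replicate 1.

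Mt1 and Mt2 moved together from mouse to mouse. Over the 8 mice their Pearson's r was 0.984 (p = 4.71e-04, adjusted p = 0.0118) and Spearman's rho 0.905 (p = 0.00456, adjusted p = 0.057; two-sided exact permutation tests, adjusted over 25 relations among probe sets of the members). Without CD replicates 2 and 3, which lie farthest from the median of Mt1, r was 0.972. With the diet means removed r was 0.985, and it was 0.947 within PD mice and 0.993 within CD mice (n = 4 each). In both diets the mouse with the lowest Mt1 had the lowest Mt2. For these relations with Mt2, Mt1 was read on the called probe set, whose probes can detect several transcripts. Whether those probes also detect Mt2 was not tested, so the genes may not have been measured separately. Mt2 was not correlated with the other probe set of Mt1. The probe sets of Mt1 had r = 0.908 (p = 0.00112, adjusted p = 0.0140) and rho = 0.952 (p = 0.00114, adjusted p = 0.0285; exact permutation tests), and r = 0.809 without CD replicates 2 and 3.

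The other metallothioneins had a far narrower range. Mt3, known from brain, was 7.45 to 7.64 in PD and 7.54 to 7.67 in CD mice, with a log2 difference of −0.06. Mt4, known from stratified epithelium, was 6.84 to 6.97 in PD and 6.77 to 6.94 in CD mice, with a log2 difference of 0.05. Neither was called. Every value of Mt4 lay below the array medians of 7.09 to 7.16, and every value of Mt3 above them. Whether either gene is expressed in these livers was not tested, and a probe set without signal would also have a narrow range. Over the 4 metallothionein genes 3 were higher and 1 lower in PD mice, and the median difference of 0.19 became −0.06 without CD replicate 2 and 0.42 without CD replicate 4, while the median over all genes was −0.01.

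Mtf1, the gene of the zinc-sensing factor, had 5 probe sets, and 0 of them were called. On the probe set of the highest mean, 1428979_at, it was 8.03, 7.99, 8.17 and 7.97 in PD mice and 8.04, 8.25, 8.11 and 8.25 in CD mice, so that CD replicates 2 and 4, the lowest and the highest of the Mt1 and Mt2 values, were the highest of Mtf1. The log2 difference was −0.12 with a standard error of 0.06 (two-sided exact permutation test, p = 0.143, n = 4 each). The others had differences of −0.00 (1418333_at), −0.03 (1429170_a_at), −0.06 (1440414_at) and 0.03 (1452990_at). Over the 8 mice the r of Mtf1 with Mt1 was −0.03 (p = 0.95, adjusted p = 0.976) and rho 0.07 (p = 0.882, adjusted p = 0.974; exact permutation tests). Without CD replicates 2 and 3, r was 0.865, so that this value rests on those 2 mice. Among the probe sets of Mtf1, this one correlated with the others at r between −0.04 and 0.66 over the 8 mice, and 0 of these 4 relations passed the adjustment over the 25.

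Slc30a1, the zinc exporter, was 9.87, 9.61, 9.91 and 9.63 in PD mice and 9.78, 9.58, 9.51 and 9.81 in CD mice (1436164_at). The groups overlap, and among CD mice replicates 1 and 4 were the high ones, as for Mt1 and Mt2. Its log2 difference was 0.08 with a standard error of 0.09 (exact permutation test, p = 0.457, n = 4 each), and the other probe set, 1422786_at, differed by −0.00. Over the 8 mice its r with Mt1 was 0.761 (p = 0.033, adjusted p = 0.245) and rho 0.738 (p = 0.0458, adjusted p = 0.229; exact permutation tests), which did not pass. Without CD replicates 2 and 3 r was 0.538. The range of Slc30a1 over the mice was far narrower than that of Mt1, its SD within the diets being 0.15.

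Slc30a10, the manganese exporter, had the largest decrease among the members but was not called. On 1439934_at it was 9.37, 8.94, 8.95 and 8.92 in PD mice and 9.42, 9.35, 9.26 and 9.06 in CD mice. PD replicates 2, 3 and 4 lay below every CD mouse, and PD replicate 1 lay among the high CD mice. The log2 difference was −0.23 with a standard error of 0.11 (FDR = 0.273, exact permutation test p = 0.143, n = 4 each). On 1438751_at it was 9.07, 8.46, 8.87 and 8.50 in PD mice and 9.29, 8.59, 9.07 and 8.81 in CD mice, a log2 difference of −0.22 with a standard error of 0.16 (FDR = 0.329). Here the groups overlap more widely, and PD replicate 1 was again the highest PD mouse. Both probe sets were lower in PD mice in all 8 runs that left out 1 mouse. Without PD replicate 1 both were called, at −0.34 and −0.33. In that run 207 of all probe sets were called lower, against 118 with all mice. The difference of 1438751_at ranged more widely than that of 1439934_at. Leaving out PD replicate 2 (−0.13), PD replicate 4 (−0.14), CD replicate 1 (−0.10) or CD replicate 2 (−0.33) moved it with no call.

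Slc39a14, the importer ZIP14, had 4 probe sets and 0 calls. On 1427035_at it was 9.39, 9.51, 9.29 and 9.33 in PD mice and 9.45, 9.47, 9.58 and 9.33 in CD mice, a log2 difference of −0.08 with a standard error of 0.07 (exact permutation test, p = 0.314, n = 4 each). The others differed by −0.11 (1438490_at), 0.00 (1457770_at) and −0.09 (1425649_at). In CD replicate 4 this probe set had the lowest CD value. Its rho with Slc30a1 over the 8 mice was −0.857 (p = 0.0107, adjusted p = 0.0893) and r was −0.748 (p = 0.0392, adjusted p = 0.245; exact permutation tests), with r = −0.441 without CD replicate 3 and PD replicate 3.

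Over the 16 probe sets of the members, 6 were higher and 10 lower in PD mice, and the median log2 difference was −0.02, against −0.00 over all probe sets. Other than Mt1, Mt2 and the second probe set of Mt1, the members lay within a log2 difference of −0.23 to 0.08.

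**Figure D3:**
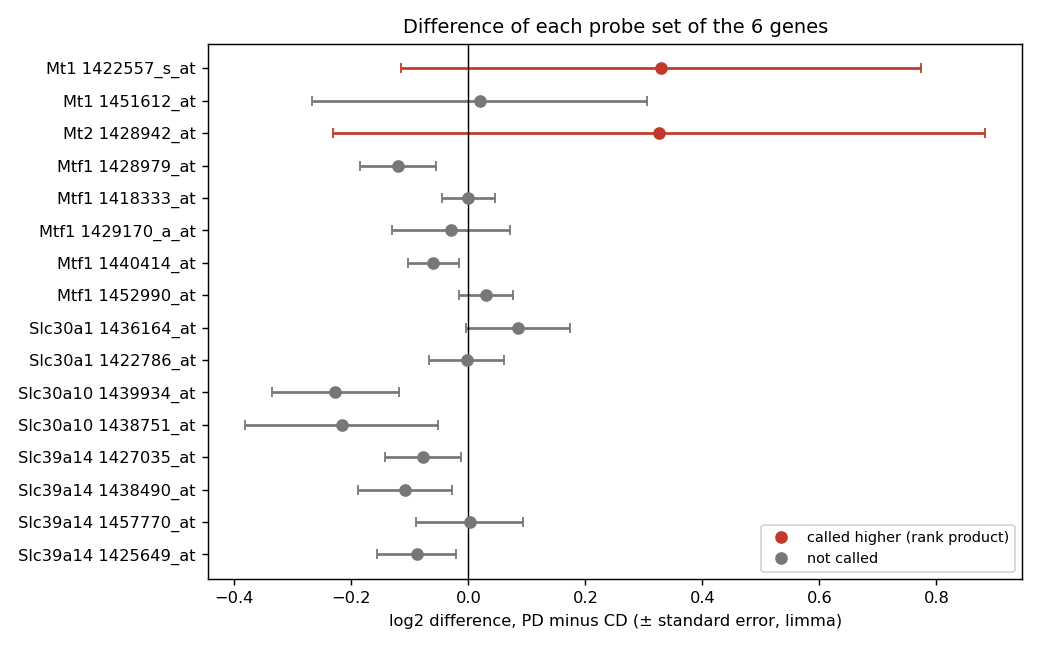
Log2 difference, PD minus CD (horizontal axis), of the 16 probe sets of the 6 genes (rows). Bars are the standard errors of limma, and red marks the probe sets called higher by the rank product. The bars of Mt1 and Mt2 cross 0 and are the longest. Both probe sets of Slc30a10 lie below 0 by more than their standard error. So do 1428979_at and 1440414_at of Mtf1, and 1427035_at, 1438490_at and 1425649_at of Slc39a14.

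The remaining zinc transporters showed small differences. Of 10 genes of the ZnT family, which includes zinc exporters and the manganese exporter Slc30a10, 7 were higher and 3 lower in PD mice, with 0 called and a median of 0.05. The most positive was Slc30a9 at 0.10 and the most negative, after Slc30a10, was Slc30a5 at −0.10. Of 14 ZIP genes, which move zinc into the cytosol, 2 were higher and 12 lower, with 0 called and a median of −0.05. Among all 18193 genes 8452 were higher and 9741 lower. Slc39a5 was 7.14 to 7.29 in PD mice and 7.14 to 7.92 in CD mice, with its highest value in CD replicate 4 and a difference of −0.17, and Slc39a2 differed by −0.11. Of 12 measured genes listed as MTF-1 targets 7 were higher and 5 lower, with the median at 0.03 and Mt1 and Mt2 as the 2 called. Their differences ranged from −0.23 for Gclc, a subunit of the enzyme that starts glutathione synthesis, to 0.33 for Mt1.

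Genes of copper and manganese handling had 0 calls. Of 16 copper genes 6 were higher and 10 lower in PD mice with a median of −0.04. Sco2, which delivers copper to cytochrome oxidase, differed by −0.27 and Cox17, a copper chaperone of the same path, by 0.11. Of 9 manganese genes, which include Slc30a10 and Slc39a14, 4 were higher and 5 lower with a median of −0.03. Slc11a2, the divalent metal transporter DMT1, differed by −0.18.

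The other known inducers of metallothionein genes were read through their targets, with no test of the lists. Of 16 targets of interleukin 6 and STAT3, 15 were lower in PD mice and 1 was higher, and the median difference was −0.17. Among all 18193 genes 9741 were lower, with a median of −0.01. Of the 16 targets Saa1, Saa2 and Lcn2, which encode acute-phase proteins, and Socs3, a feedback inhibitor of cytokine signaling, were called lower. Over all probe sets 0.262% were called lower. By limma the unadjusted p was 0.258 for Saa1, 0.291 for Saa2, 0.489 for Lcn2 and 0.639 for Socs3. Saa1 was 10.69, 12.15, 10.61 and 10.58 in PD mice and 11.08, 10.16, 11.95 and 14.33 in CD mice. CD replicate 4 held the highest value of Saa1 and CD replicate 2 the lowest, the same mice as for Mt1 and Mt2, but CD replicate 1, where Mt1 was high, lay below CD replicate 3 in Saa1. Lcn2 was 8.62, 9.95, 7.96 and 8.16 in PD mice and 8.16, 7.57, 9.05 and 12.44 in CD mice, with CD replicates 4 and 2 again at the ends. As a mean over the list, CD replicate 4 lay 1.19 above the average of the 8 mice, and the other mice lay between −0.38 and 0.18. PD replicate 3, the highest PD mouse of Mt1, was the lowest PD mouse in this mean. The calls of Saa1, Saa2 and Lcn2 were lost without CD replicate 4 (−0.06, 0.12 and 0.41) or CD replicate 3, that of Lcn2 also without PD replicate 3 or 4, and Socs3 was called in 2 of the 8 runs that left out 1 mouse. Without CD replicate 2 the difference was −1.45 for Saa1, −1.86 for Saa2 and −1.21 for Lcn2. That of Lcn2 also moved on leaving out PD replicate 2 (−1.06), PD replicate 3 (−0.40) or CD replicate 1 (−1.02). For Socs3 it was −0.21 with all mice, and moved on leaving out PD replicate 1 (−0.62), PD replicate 3 (0.06), PD replicate 4 (−0.02), CD replicate 1 (−0.45) or CD replicate 3 (0.10). The median of the list was −0.04 without CD replicate 4. Over the 8 mice the r of the listed targets with Mt1 ran from −0.14 for Il1rn to 0.62 for Hpx, as a description over the same arrays. It was 0.58 for Saa1 and −0.10 for Socs3.

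Targets of the glucocorticoid receptor were ordered differently from Mt1 among the CD mice. Their r with Mt1 over the 8 mice ran from −0.73 to 0.20 as a description. Of 13 measured, 12 were lower in PD mice and 1 higher, the median difference being −0.15 on the log2 scale, and 4 were called lower. These were Tsc22d3 (−0.40), Zbtb16 (−0.55), Tat (−0.44), a tyrosine catabolic enzyme, and Igfbp1 (−0.15), a secreted binder of insulin-like growth factors. By limma the unadjusted p was 0.103 for Tsc22d3, 0.373 for Zbtb16, 0.00504 for Tat and 0.665 for Igfbp1. Among all 18193 genes 9741 were lower, and 0.262% of all probe sets were called lower. Tsc22d3, the glucocorticoid-induced leucine zipper GILZ, was 9.79, 10.02, 9.82 and 9.28 in PD mice and 10.65, 10.22, 10.20 and 9.44 in CD mice. CD replicate 4, the highest of Mt1, was the lowest CD mouse here, and PD replicate 4 the lowest PD mouse. As a mean over the list CD replicate 4 lay −0.43 from the average of the 8 mice and CD replicates 1, 2 and 3 lay 0.36, 0.29 and 0.13 from it. Among PD mice replicate 4 was the lowest in this mean (−0.34), as in Mt1 and Mt2. PD replicate 2 was the highest (0.27), as in Mt2. The difference of Tsc22d3 moved on leaving out PD replicate 4 (−0.26), CD replicate 1 (−0.23) or CD replicate 4 (−0.63). That of Zbtb16 moved on leaving out PD replicate 2 (−0.95), PD replicate 4 (−0.18), CD replicate 1 (−0.30), CD replicate 3 (−0.36) or CD replicate 4 (−1.13). That of Igfbp1 moved on leaving out CD replicate 1 (0.01), CD replicate 2 (0.04), CD replicate 3 (−0.07) or CD replicate 4 (−0.58). Each of the 4 calls was lost when CD replicate 1, 2 or 3 was left out, and those of Tsc22d3 and Tat also when PD replicate 4 was. The median of the list ran between −0.04, without CD replicate 1 or 2, and −0.30, without CD replicate 4.

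**Figure D4:**
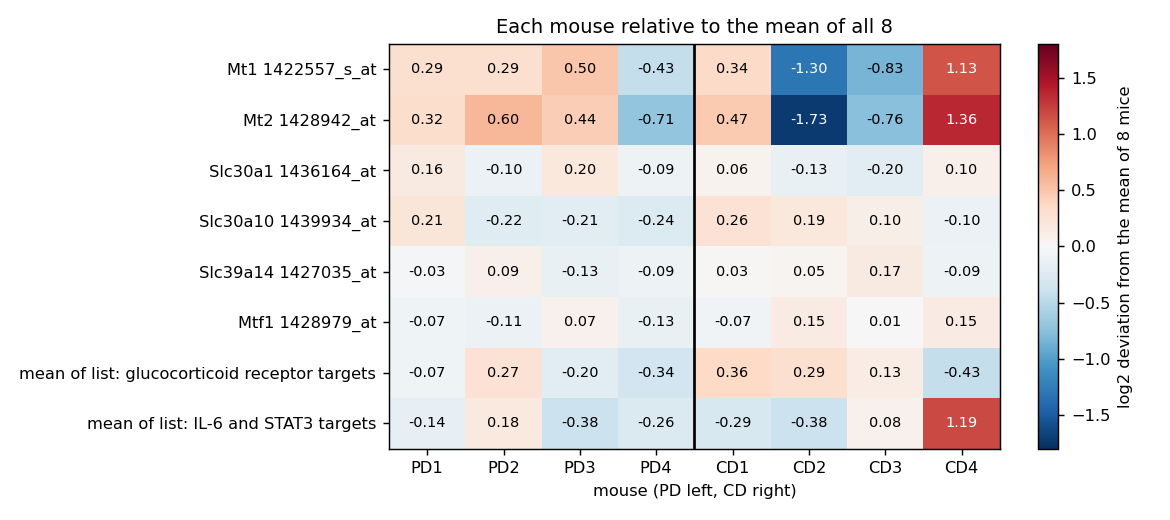
Log2 deviation of each mouse (columns, PD left and CD right) from the mean of the 8 mice, for the lead probe set of each member and for the mean over the targets of the glucocorticoid receptor and of interleukin 6 and STAT3 (rows). CD replicate 4 is highest for Mt1, Mt2 and the interleukin 6 targets and lowest for the glucocorticoid targets, and CD replicate 2 is lowest for Mt1 and Mt2.

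Targets of Nrf2, the factor of the antioxidant response, were split, with 6 higher and 7 lower of 13 and the median at −0.04. Gstm3, a glutathione transferase, was called higher (0.46), and Gsta2, another, was called lower (−0.40). By limma the unadjusted p was 0.020 for Gstm3 and 0.191 for Gsta2. The call of Gstm3 was lost without PD replicate 2 (0.34) or PD replicate 4. That of Gsta2 was lost without PD replicate 2 (−0.23), CD replicate 1 or CD replicate 2 (−0.16).

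Among 929 genes at or above the median level whose SD over the 8 mice was at least 0.2, the 8 whose values were most like those of Mt1 were C8b and C2, components of complement, Apcs, the serum amyloid P component, Moxd1, Stc2, Tagln3, Fam3a and Slc39a5, a zinc importer of the ZIP family. Their Pearson's r with Mt1 lay between 0.69 and 0.79 over the 8 mice, below the 0.984 of Mt2. All 8 had their highest value in CD replicate 4, as Mt1 did. This is in part set by the rule, which picked them for their likeness to Mt1 over these same arrays. C8b was 10.57, 10.91, 10.59 and 10.55 in PD mice and 10.80, 10.46, 10.50 and 11.09 in CD mice, with an r of 0.79. Their log2 differences lay between −0.17 and 0.12, and 0 of the 8 were called.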

How the data were processed

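Deposited by the authors were log2 model-based expression indices, for which the submitters' processing notes name R 2.7.2. They were not transformed further. How the arrays were normalized is not given in the sources used. For arrays the number of mice limits the precision. The 45037 probe sets tested leave out 64 controls, and in the annotation 34945 of them carry a single gene symbol, 932 more than one and 9160 no symbol.

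The rank product was run in Python 3.11.15 (numpy 2.4.6, scipy 1.17.1) over 16 pairs of arrays with 1000 permutations, and limma 3.58.1 in R 4.3.3 with Benjamini-Hochberg adjustment over all probe sets. Both were run on simulated data in which the noise was independent between probe sets. Shifts shared by many genes of a mouse were not simulated. Lists used 1 probe set per gene, that of the highest mean. Levels of different probe sets were not compared.

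The members, gene lists and promoter motifs were chosen with earlier results of these data known. The named genes are all probe sets of the members, the called and the most changed genes of each list, and the 8 genes most correlated with Mt1, and not every gene of this rule is named. The alternatives were an FDR of 0.05, limma, limma with a trend and robust variances, the methods' t-test, the replicate block, leaving out each mouse, quantile normalization, centring of each array, the mean over the probe sets of a gene, leaving out either dim probe sets or those that can detect several transcripts, and 16 added before taking the log2. Medians and calls of the lists without each mouse, and relations within a diet, were added after seeing the data.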

Additional observations from a re-analysis of the deposited data

Results flagged for a closer look

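In 4 of the 32 groups of 4 mice looked at (16 probe sets in PD and in CD mice), 1 mouse lay apart from the other three by more than Dixon's critical value for 4 samples. Chance alone marks about 1 in 20 such groups. For Slc30a10 (1439934_at), PD replicate 1 was 9.37, and the other PD mice were 8.92 to 8.95. For Mtf1 (1429170_a_at), PD replicate 1 was 7.62, with the other PD mice at 7.77 to 7.78. For Slc39a14 (1438490_at), PD replicate 4 was 8.67, with the other PD mice at 8.81 to 8.84. For Mtf1 (1418333_at), CD replicate 3 was 8.13, with the other CD mice at 8.03 to 8.04. The CD mice with the extreme values of Mt1 and Mt2 were not marked in this way.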

How the results depend on the processing

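The 2 calls among the members stayed at an FDR under 0.05, after quantile normalization, with 16 added before the log2, and without dim probe sets. Without probe sets that can detect several transcripts 1 was left (Mt2), since that of Mt1 is itself left out. Mt1 (0.33) and Mt2 (0.33) were not called by limma or the methods' t-test, which called 0 members. As the mean of its probe sets Mt1 differed by 0.17 and was still called, Mtf1 by −0.04 and Slc30a1 by 0.04. With the replicate block the rank product called 109 probe sets higher and 103 lower and 2 members, limma 0, and no call of a member changed. The lowest adjusted p by limma was 0.102 with this block and 0.998 without it. Correlations of deviations lay between −0.06 and −0.00 for same-numbered mice, and between −0.19 and 0.16 for other pairs. They show no pairing by number, but so few pairs cannot settle whether mice shared a batch.

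Leaving out 1 mouse, the difference ran from −0.050 to 0.76 for Mt1, −0.20 to 0.83 for Mt2, −0.21 to 0.28 for Mt1 on 1451612_at, −0.012 to 0.024 and −0.11 to 0.058 for Mtf1 (1418333_at, 1429170_a_at), −0.042 to 0.044 for Slc30a1 (1422786_at) and −0.088 to 0.065 for Slc39a14 (1457770_at). Members called ran from 0 to 2 higher and 0 to 2 lower, all probe sets called from 27 to 190 higher (96 with all mice) and 16 to 207 lower (118 with all mice), and limma from 0 to 1, the 1 being without PD replicate 2. Over all probe sets, the mean per gene gave 52 higher and 61 lower, limma and the methods' t-test after Benjamini-Hochberg 0 in each direction, and the unadjusted t-test 831 and 880. The lower count was 72 without dim probe sets and 60 at an FDR under 0.05. The sign of Mtf1 (1418333_at, −0.00) turned with quantile normalization (0.0054) and centring (0.0097), and that of Slc30a1 (1422786_at, −0.00) with centring (0.0067). The cause of these changes was not tested, other than that fewer probe sets enter where some are left out.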
